A study of Rattus norvegicus with 13 samples.

Results

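The genes described here are *Casp9*, *Apaf1*, *Xiap*, *Bax*, *Bak1*, *Bcl2l1* and *Mcl1*, which encode core proteins of the mitochondrial pathway of apoptosis. They were chosen by gene name from a list of 8, and 7 of the 8 had a row among the 14716 transcript rows (13130 distinct gene names). Where a name has several rows the rule takes the one with the highest mean level over all pups, but each of the 7 names had 1 row, so measured levels decided nothing about which rows were taken. *Bcl2* was not analysed here. The list was drawn up with earlier results of these data in view, so the tests on these genes are not independent of that choice.

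The samples were taken from the posterior ventricular zone (VZ), the layer beside the lateral ventricle that holds the radial glia and other progenitor cells of the forebrain. The VZ of male Long Evans rats on postnatal day 2 (PN2) was cut out by laser capture microdissection and its total RNA was sequenced after depletion of ribosomal RNA. The 7 control pups were euthyroid offspring of dams given drinking water with no drug, and the 6 PTU pups were hypothyroid offspring of dams given 3 ppm propylthiouracil (PTU), a drug that blocks thyroid hormone synthesis, in drinking water from early pregnancy. Each pup came from a different litter, so a pup is an independent animal, but dam and pup were exposed together and the captured tissue holds more than 1 cell type.

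In the mitochondrial pathway, the pore-forming proteins BAX and BAK open the outer mitochondrial membrane and let cytochrome c into the cytosol, where APAF1 assembles into the apoptosome and activates the initiator caspase-9. Proteins of the BCL2 type, among them BCL-XL (encoded by *Bcl2l1*) and MCL1, hold BAX and BAK in check, and XIAP binds and blocks the active caspases. The pathway removes surplus progenitors and neurons in the developing forebrain, and much of its control acts on the proteins and not on the amount of mRNA.

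Levels are given as normalized counts, which are the estimated read counts per transcript divided by a size factor for each pup. They are not corrected for transcript length, so levels are compared between pups and not between genes. Fold changes are PTU over control and come from a limma model of log2(normalized count + 1) across all 14606 rows with a mean of at least 10, where p-values were adjusted by Benjamini-Hochberg and 0.05 was the threshold. The reads assigned to rows, fewer than those sequenced, were roughly estimated at 22276232 to 43492524 in the control pups and 28427829 to 44360751 in the PTU pups. The 3 highest rows, none of them a gene described here, took 32.4 to 60.1% and 23.9 to 57.0% of these.

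No difference between PTU and control pups was called for any of the 7 genes. The limma test called 0 of 7 at an adjusted p of 0.05, where it also called 0 of all 14606 rows (0%), and 0 of 7 had an unadjusted limma p under 0.05, where 16.3% of all rows did (8.2% with a lower and 8.11% with a higher PTU mean on the log2 scale). The ranges of the groups overlapped for all 7 genes, and for all but 0.596% of rows. The median log2 fold change of the 7 was -0.03, against 0.00 for all rows, and their adjusted p-values ran from 0.348 to 0.998. In 2 genes the log2 fold change was above 0 and in 5 it was below 0, but 4 of those 5 (*Xiap*, *Bak1*, *Bcl2l1* and *Mcl1*) turned to above 0 when each pup was scaled to the same total, a setting that moved the median of all rows to 0.20. Relative to that median they were at -0.14, -0.00, -0.03 and -0.16. The 95% intervals of the log2 fold change lay between -0.57 and 0.41 for all 7.

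**Figure D1:**
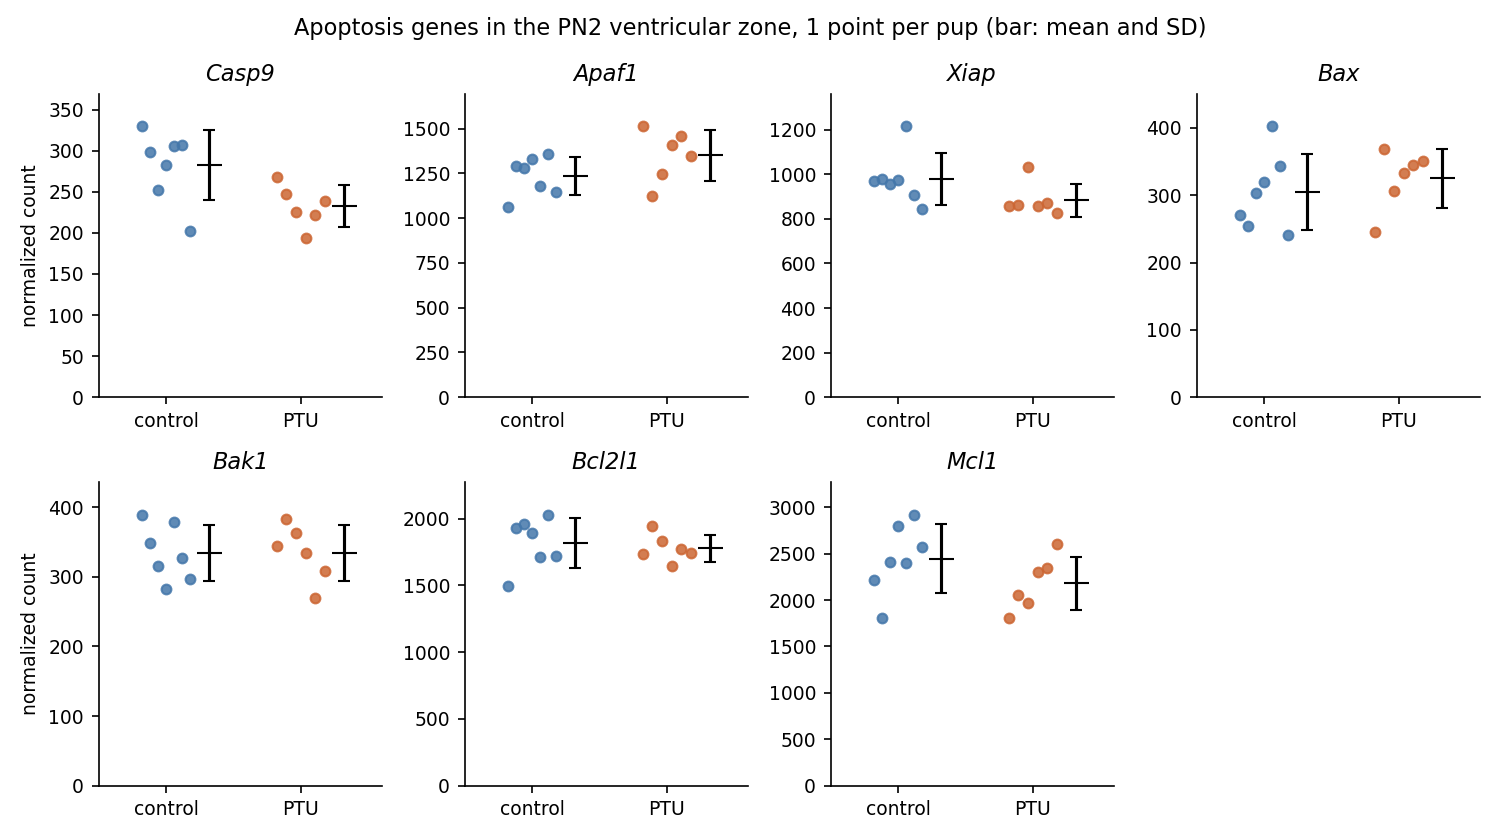
Normalized counts (vertical axes, starting at 0) of the 7 apoptosis genes in each of 7 control and 6 PTU pups, 1 point per pup, with the group mean and SD as a bar beside the points. The groups overlap in every panel; *Casp9* has its 6 PTU pups between 194 and 269, all below the control mean of 283.

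*Casp9* (row ENSRNOT00000017972), the initiator caspase of the apoptosome, had the largest log2 fold change of the 7 in size as the data were deposited. With each pup scaled to the same total, it was -0.07 and those of *Apaf1* (0.33) and *Bax* (0.30) were larger, where the median of all rows was 0.20. The lowest, median and highest normalized counts of *Casp9* were 203, 299 and 330 in the control pups and 194, 232 and 269 in the PTU pups. All 6 PTU pups lay below the control mean, and the groups overlapped through control replicate 7, the lowest control pup at 203, and control replicate 3 at 252. The means were 283 ± 42.8 (SD, n = 7) and 233 ± 25.4 (SD, n = 6). The log2 fold change was -0.27 (SE 0.14, 95% interval -0.57 to 0.03), a level of 0.829 times control, with a limma adjusted p of 0.348, and 20.8% of all rows had a limma p as small or smaller.

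By the exact permutation test on its own values (two-sided, unadjusted, over all ways to draw 7 of the 13 pups), *Casp9* had p = 0.0396, the smallest of 7 such tests, 1 for each gene. The smallest p this test can give is 0.000583. The size of the *Casp9* difference varied less between settings than its p did. After quantile normalization the log2 difference was again -0.27 with p = 0.0536 by the exact permutation test, and on leaving out each pup in turn it ran from -0.35 to -0.22, with p from 0.00433 to 0.0846 and above 0.05 for 9 of the 13 pups. The lowest of these p-values came without control replicate 7, where the log2 difference was -0.35. With each pup scaled to the same total the log2 difference was -0.07 (exact permutation p = 0.78), or -0.27 relative to the median of all rows.

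*Apaf1* (row ENSRNOT00000010869), the scaffold of the apoptosome, had normalized counts of 1063, 1279 and 1361 (lowest, median, highest) in control pups and 1126, 1378 and 1515 in PTU pups. In 5 of 6 PTU pups the level was above the control mean and PTU replicate 2 was the low one, and most of the control range was shared. The means were 1236 ± 108 (SD, n = 7) and 1351 ± 144 (SD, n = 6), a log2 fold change of 0.13 (SE 0.09, 95% interval -0.06 to 0.32) with a limma adjusted p of 0.498 and an exact permutation p of 0.144. Without PTU replicate 2 the exact permutation p was 0.0328, with a log2 difference of 0.18.

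*Xiap* (row ENSRNOT00000085110) encodes the caspase inhibitor. Its lowest, median and highest normalized counts were 843, 972 and 1217 in the control pups and 827, 860 and 1033 in the PTU pups. One pup in each group stood above the rest, control replicate 5 at 1217 with the next at 981, and PTU replicate 3 at 1033 with the next at 870. The other 5 PTU pups lay between 827 and 870, below the 6 control pups other than replicate 7, which was at 843. The means were 978 ± 116 (SD, n = 7) and 884 ± 74.2 (SD, n = 6). Its log2 fold change was -0.14 (SE 0.09, 95% interval -0.34 to 0.06), with a limma adjusted p of 0.461 and an exact permutation p of 0.0915. The exact permutation p for *Xiap* was 0.0152 without PTU replicate 3 and 0.0411 without control replicate 7, and the log2 fold change turned to 0.06 with each pup scaled to the same total.

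*Bax* (row ENSRNOT00000028328), a pore former that moves from the cytosol to mitochondria, ran from 241 to 403 normalized counts with a median of 303 in control pups and from 245 to 369 with a median of 339 in PTU pups. The range of the PTU pups fell inside that of the control pups, and 5 of 6 PTU pups lay above the control mean. *Bax* had a log2 fold change of 0.10 (SE 0.15, 95% interval -0.21 to 0.41), from means of 305 ± 56.4 (SD, n = 7) and 325 ± 44.2 (SD, n = 6), with a limma adjusted p of 0.759 and an exact permutation p of 0.45.

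*Bak1* (row ENSRNOT00000000576), the pore former that resides in the mitochondrial membrane, had the same mean in both groups. Its normalized counts ran from 282 to 389 (median 326) in control and from 270 to 383 (median 339) in PTU pups, and nearly the whole of the ranges was shared. The means were 334 ± 40.3 (SD, n = 7) and 334 ± 40.1 (SD, n = 6), a log2 fold change of -0.00 with a 95% interval of -0.26 to 0.26, so that a change beyond 0.833 to 1.2 times the control level lay outside the interval. The limma adjusted p was 0.998 and the exact permutation p was 0.99.

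*Bcl2l1* (row ENSRNOT00000010762), which encodes the survival protein BCL-XL, varied least among the 7. Control pups had normalized counts of 1494, 1890 and 2030 (lowest, median, highest) and PTU pups of 1645, 1758 and 1942. All PTU values lay within the range of the control pups. The means were 1819 ± 187 (SD, n = 7) and 1779 ± 99.9 (SD, n = 6), with a log2 fold change of -0.03 (SE 0.08, 95% interval -0.20 to 0.15), a limma adjusted p of 0.898 and an exact permutation p of 0.71. Its interval, 0.87 to 1.11 times the control level, was the narrowest of the 7.

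*Mcl1* (row ENSRNOT00000109758) encodes a short-lived survival protein that neural progenitors need. Its normalized counts were 1803, 2409 and 2922 (lowest, median, highest) in the control pups and 1811, 2180 and 2604 in the PTU pups. The PTU range again fell inside the control range, and 5 of 6 PTU pups were below the control mean. The means were 2446 ± 372 (SD, n = 7) and 2181 ± 289 (SD, n = 6). The log2 fold change was -0.16 (SE 0.11, 95% interval -0.40 to 0.07), with a limma adjusted p of 0.482 and an exact permutation p of 0.202. Without control replicate 2, the lowest control pup, the log2 difference was -0.23 and the exact permutation p was 0.0476, and with each pup scaled to the same total the log2 fold change was 0.04.

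The spread between pups of a group was below that of the typical row for all 7 genes: the SD within groups on the log2 scale was 0.13 for *Bcl2l1*, 0.14 for *Apaf1* and *Xiap*, 0.18 for *Bak1*, 0.21 for *Casp9* and *Mcl1* and 0.24 for *Bax*, and the median over all rows was 0.28. For *Bcl2l1*, 5.54% of all rows varied as little. *Casp9*, *Bax* and *Bak1* rested on the fewest reads, an estimated 193 to 457 per pup. Counting alone gives an SD of about 0.1 on the log2 scale at the lowest read count of each. *Apaf1*, *Xiap*, *Bcl2l1* and *Mcl1* rested on an estimated 718 to 3231 reads per pup.

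Differences between genes within a pup do not depend on how the pup was scaled, so they were used to describe the balance between pore formers and survival genes, and between the apoptosome and its inhibitor. They are given as log2 differences, of which only the shift between groups can be read, since the genes differ in transcript length. *Bax* minus *Mcl1* averaged -3.01 ± 0.26 (SD, n = 7) over control and -2.74 ± 0.15 (SD, n = 6) over PTU pups, a shift of 0.26, and 6 of 6 PTU pups lay above the control mean. *Bax* minus *Bcl2l1* was -2.59 ± 0.27 in control and -2.46 ± 0.20 in PTU pups, a shift of 0.13. With *Bak1* in place of *Bax* the shifts were 0.16 against *Mcl1* and 0.03 against *Bcl2l1*, with 4 of 6 PTU pups above the control mean in both. The groups overlapped in all of these.

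The apoptosome genes were also compared within pups, with each other and with *Xiap*. *Casp9* minus *Apaf1* was -2.14 ± 0.26 (SD, n = 7) over control pups, with a range of -2.49 to -1.68, and -2.53 ± 0.23 (SD, n = 6) over PTU pups, with a range of -2.85 to -2.18. The shift was -0.40, and 6 of 6 PTU pups lay below the control mean, but the ranges overlapped. This pair was not planned with the others. It joins the lowest (-0.27) and the highest (0.13) log2 fold change of the 7 genes, so its shift was bound to be the largest of the 7 pairs. *Apaf1* minus *Xiap* shifted by 0.27, from 0.34 ± 0.22 to 0.61 ± 0.22, with 5 of 6 PTU pups above the control mean. *Casp9* minus *Xiap* shifted by -0.13, with 3 of 6 PTU pups on each side of the control mean. These shifts are descriptions, and no test was run on them.

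**Figure D2:**
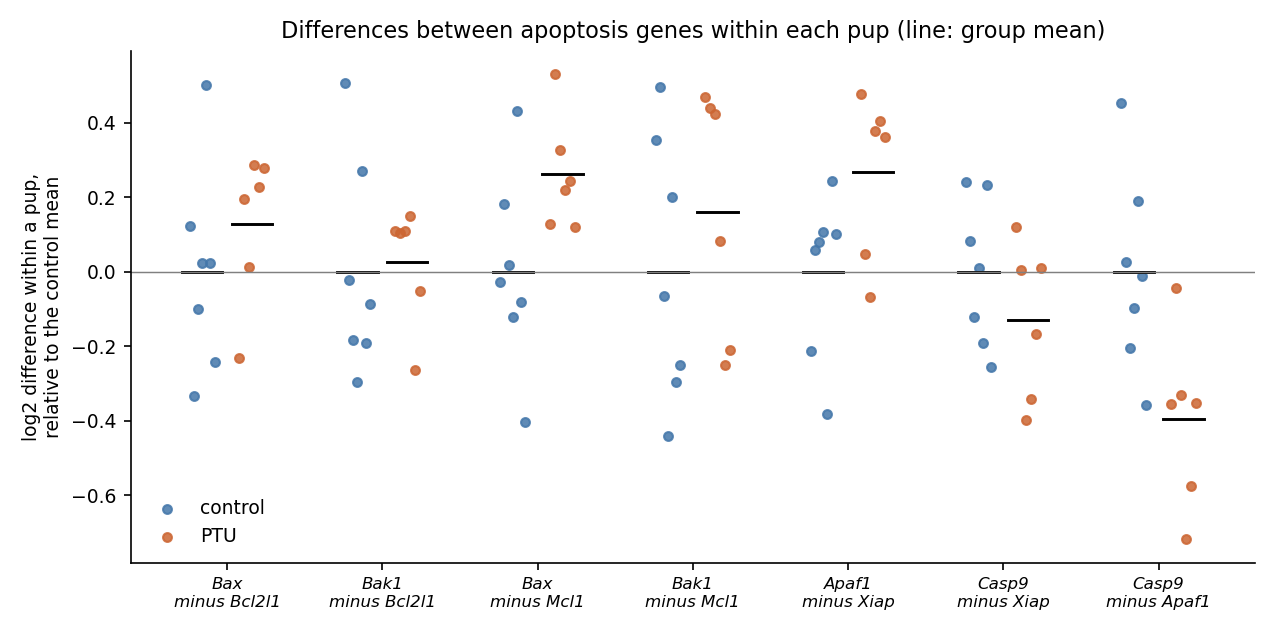
Log2 difference between 2 genes within each pup, minus the control mean of that pair (vertical axis), for 7 pairs in 7 control and 6 PTU pups, with a line at each group mean. The PTU pups center on 0.26 for *Bax* minus *Mcl1*, on 0.27 for *Apaf1* minus *Xiap* and on -0.40 for *Casp9* minus *Apaf1*, and every pair overlaps the control pups.

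Across the 13 pups, the genes whose levels followed each of the 7 most closely were found by Pearson's r of log2 values after removal of the group means, over 11959 other rows with a mean of at least 100. The closest rows were *Tcp1* (r = 0.856) and *Psmd1* (0.855) for *Casp9*, *Tspy26* (0.909) and *Map2k6* (0.893) for *Apaf1*, and *Per3* (0.912) and *Mios* (0.858) for *Xiap*. For the pore formers they were *Slc25a28* (0.921) and *Crebzf* (0.911) for *Bax*, and *Zup1* (0.963) and *Slc39a11* (0.929) for *Bak1*. For the survival genes they were *Kctd17* (0.903) and *Dot1l* (0.895) for *Bcl2l1*, and *Csnk1e* (0.944) and *Zfp316* (0.939) for *Mcl1*. None of the 7 was among the closest rows of another. All rows of a pup come from 1 library, with its depth and tissue composition, and many rows were searched over only 13 pups, so these are the highest of many correlations: between 12 rows (*Casp9*) and 75 rows (*Mcl1*) had r above 0.8.

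Of the rest of the pathway, 96 genes in 9 lists were looked for and 83 were measured. The limma test called 0 of the 83 at an adjusted p of 0.05 (smallest adjusted p 0.122), 13 had an unadjusted p under 0.05 (15.7%, against 16.3% of all rows), 8 with a log2 fold change above 0 and 5 with one below 0, and no gene had ranges that did not overlap. The median log2 fold change over the 83 was 0.00, as over all rows. Of those with an unadjusted p under 0.05, 4 belonged to the 9 mitochondrial death factors, whose median was 0.25, and this list had 7 genes with a log2 fold change above 0 and 2 with one below 0. With each pup scaled to the same total, its median was 0.45, or 0.25 above that of all rows.

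Among the other caspases, 6 of 8 were measured, with a median log2 fold change of -0.04. *Casp4*, an inflammatory caspase, had means of 33.5 ± 17.4 (SD, n = 7) and 16.7 ± 8.85 (SD, n = 6), a log2 fold change of -0.96 (limma adjusted p = 0.279). *Casp6*, an executioner caspase, had a log2 fold change of -0.59 (limma adjusted p = 0.306).

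The mitochondrial death factors are proteins of the mitochondria that take part once the pathway is engaged. *Vdac3*, a channel of the outer membrane, had normalized counts of 1700, 1851 and 2160 in control pups and 2102, 2561 and 2704 in PTU pups (lowest, median, highest). All 6 PTU pups lay above the control mean, and the ranges overlapped between 2102 and 2160. Its log2 fold change was 0.38 (SE 0.08), or 1.30 times control (95% interval 1.15 to 1.47), with a limma adjusted p of 0.122. The limma adjusted p was 0.0336 without PTU replicate 2 and 0.0413 with pups weighted by quality. The exact permutation p was 0.00175, unadjusted. *Vdac3* was picked for the smallest limma p of its list on the same values, so this is not independent support. *Ppif*, which encodes the cyclophilin D of the permeability transition pore, had a log2 fold change of 0.41 (limma adjusted p = 0.218), and *Vdac2*, a channel that binds BAK, had one of 0.29 (limma adjusted p = 0.265).

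Of the Bcl2 family beyond the genes above, 4 of 7 were measured, 1 had an unadjusted p under 0.05 and the median log2 fold change was -0.01. *Bok*, a relative of *Bax* and *Bak1*, had normalized counts of 232, 288 and 374 in control pups and 327, 387 and 573 in PTU pups (lowest, median, highest). All 6 PTU pups were above the control mean, with overlap between 327 and 374. For *Bok* the log2 fold change was 0.46 (SE 0.16), with a limma adjusted p of 0.18. The exact permutation p was 0.014, unadjusted and for a gene picked by its limma p. The other measured relatives that were named by the rule, *Bcl2l12* and *Bcl2l13*, had log2 fold changes of -0.40 (limma adjusted p = 0.573) and -0.10 (limma adjusted p = 0.551), and *Bcl2l13* turned to 0.10 with each pup scaled to the same total.

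Of the BH3-only proteins, which trigger BAX and BAK or disarm their inhibitors, 8 of 10 were measured, 2 had an unadjusted p under 0.05 and the median log2 fold change was -0.10, which became 0.10 with each pup scaled to the same total. *Bmf*, which is released from the cytoskeleton on loss of attachment, had means of 746 ± 113 (SD, n = 7) and 580 ± 133 (SD, n = 6), a log2 fold change of -0.38 (SE 0.15, limma adjusted p = 0.231). PTU replicate 1 was the lowest pup at 358, and without it the log2 fold change of *Bmf* was -0.25. *Bad*, which is held inactive by survival signaling, had means of 1010 ± 104 and 855 ± 123, a log2 fold change of -0.24 (limma adjusted p = 0.263). *Bid*, which links death receptors to mitochondria, had a log2 fold change of 0.34 (limma adjusted p = 0.493). PTU replicate 1 was at 242 and the other PTU pups between 83.9 and 145, and without that pup the log2 fold change was 0.15.

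In the death receptor pathway, 10 of 12 genes were measured. *Tnfrsf1a*, the main receptor for tumor necrosis factor, had normalized counts of 539, 629 and 785 in control pups and 370, 444 and 580 in PTU pups (lowest, median, highest). All 6 PTU pups were below the control mean, and the highest PTU pup overlapped the lowest control pups. The log2 fold change was -0.47 (SE 0.12), or 0.724 times control, with a limma adjusted p of 0.133. The exact permutation p was 0.00233, unadjusted and for a gene picked by its limma p. *Tradd*, its adaptor, and *Tnfrsf10b*, a receptor for TRAIL, were low in all pups and had log2 fold changes of 0.64 (limma adjusted p = 0.461) and 0.75 (limma adjusted p = 0.53). Without control replicate 1 both were 0.42.

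**Figure D3:**
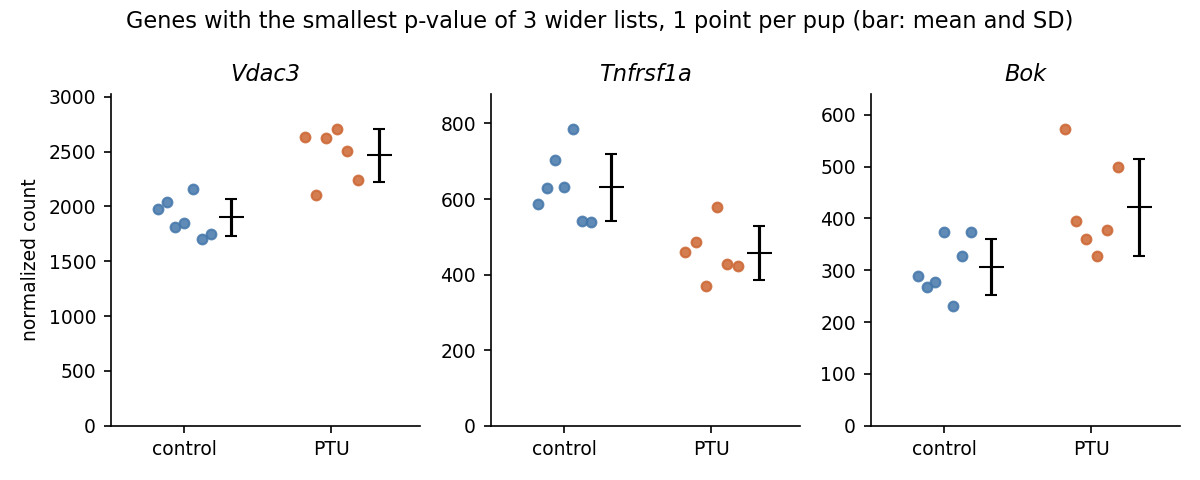
Normalized counts (vertical axes, starting at 0) of *Vdac3*, *Tnfrsf1a* and *Bok*, the genes with the smallest p of 3 of the other lists, in 7 control and 6 PTU pups, 1 point per pup, with the group mean and SD. *Vdac3* (mean 1899 in control, 2466 in PTU) and *Tnfrsf1a* (631 in control, 458 in PTU) overlap at the ends of their ranges, and none of the 3 passed an adjusted p of 0.05.

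The other inhibitors of apoptosis, of which 3 of 6 were measured, all had log2 fold changes above 0, with a median log2 fold change of 0.12. *Birc5*, which encodes survivin and is used in cell division as well, had means of 333 ± 52.4 (SD, n = 7) and 421 ± 95.8 (SD, n = 6), a log2 fold change of 0.32 (limma adjusted p = 0.333). *Birc2* and *Birc6* had log2 fold changes of 0.12 (limma adjusted p = 0.488) and 0.09 (limma adjusted p = 0.593).

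The p53 pathway, which drives several pro-apoptotic genes after DNA damage, was measured in full. Of its 15 genes, 5 had a log2 fold change above 0 and 10 one below 0 (1 of the 10, *Tp53inp1*, named after its value was seen, at -0.00), none had an unadjusted limma p under 0.05 and none was called; the median log2 fold change was -0.06, and with each pup scaled to the same total 12 were above and 3 below 0. *Mdm2*, the ubiquitin ligase that degrades p53, had means of 1364 ± 107 (SD, n = 7) and 1215 ± 121 (SD, n = 6), a log2 fold change of -0.17 (limma adjusted p = 0.33) that turned to 0.03 under that scaling. *Perp* and *Ppp1r13b* had log2 fold changes of -0.51 (limma adjusted p = 0.332) and 0.34 (limma adjusted p = 0.427). For *Ppp1r13b*, PTU replicate 1 was at 1176, while the median was 518 in PTU and 540.0 in control pups, and without that pup the log2 fold change was 0.15.

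None of the 8 caspase substrates and nucleases had an unadjusted limma p under 0.05 and none was called, with a median log2 fold change of 0.04. *Gsdme*, a pore-forming caspase substrate, had a log2 fold change of 0.37 (limma adjusted p = 0.349), *Dffa*, the inhibitor of the caspase-activated nuclease, one of 0.11 (limma adjusted p = 0.662), and *Acin1*, a chromatin condensation factor, one of -0.19 (limma adjusted p = 0.416) that turned to 0.01 with each pup scaled to the same total. Of the stress and survival regulators, 20 of 21 were measured and 2 had an unadjusted p under 0.05. These were *Dnm1l*, the mitochondrial fission enzyme (1689 ± 222 and 2054 ± 223, log2 fold change 0.29, limma adjusted p = 0.175), and *Mapk8*, a JNK kinase (2955 ± 304 and 3450 ± 346, log2 fold change 0.22, limma adjusted p = 0.221), both with 6 of 6 PTU pups above the control mean. *Fis1*, a fission adaptor, had a log2 fold change of -0.30 (limma adjusted p = 0.317).

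**Figure D4:**
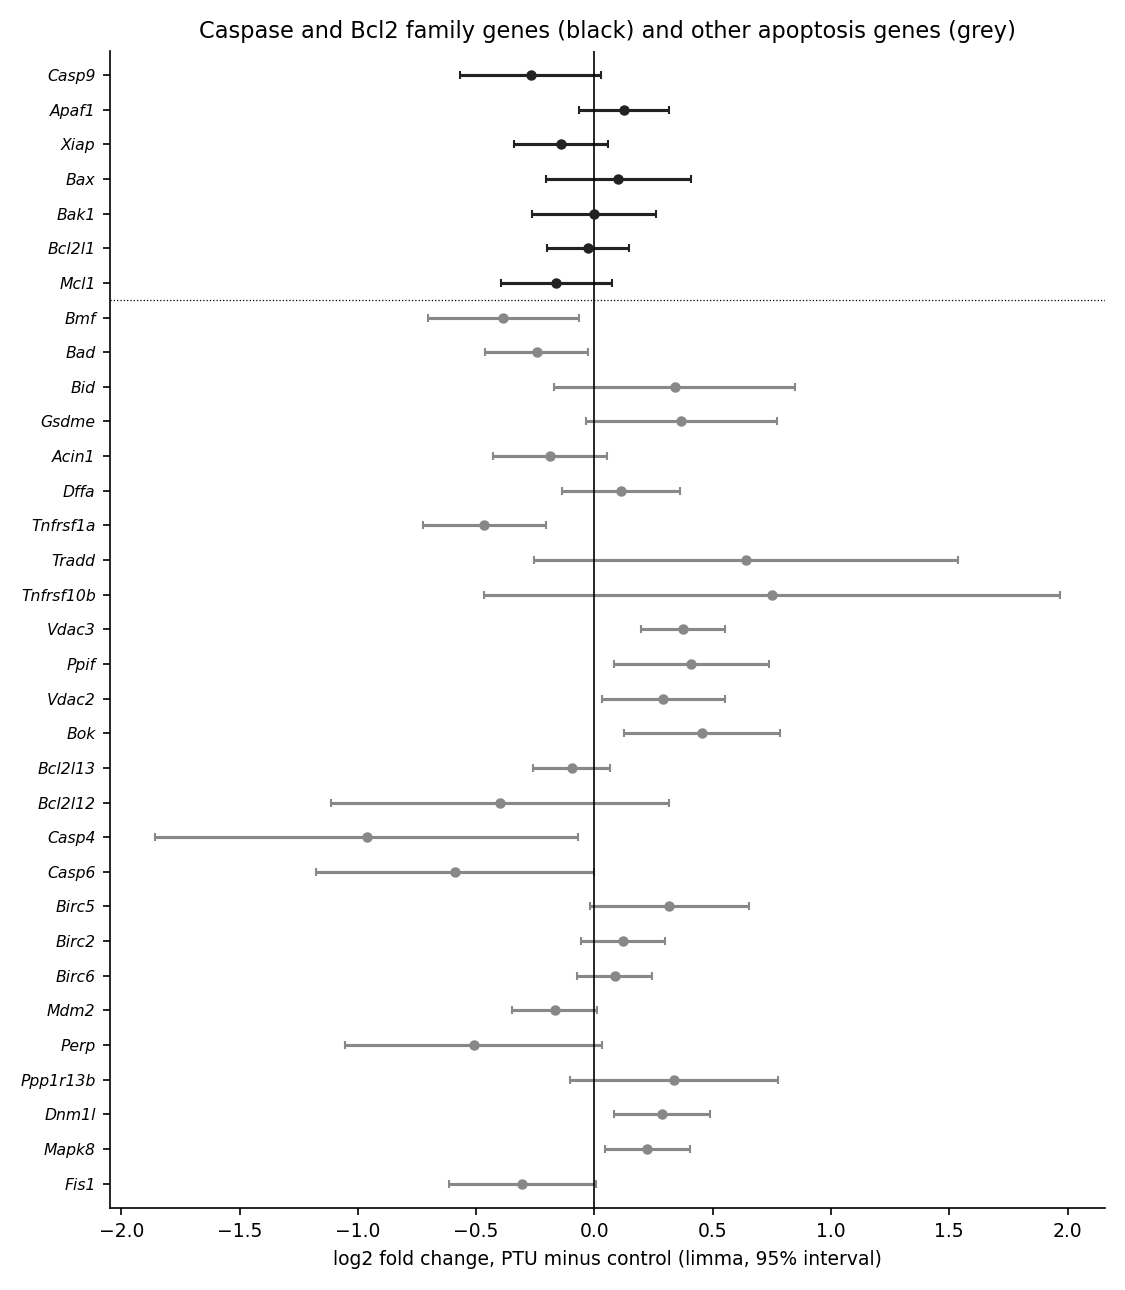
Log2 fold change, PTU minus control (horizontal axis), with its 95% interval from limma, for the 7 caspase and Bcl2 family genes (black) and 26 other apoptosis genes (grey), 7 control and 6 PTU pups. All 7 black intervals cross 0; *Vdac3* at 0.38 and *Tnfrsf1a* at -0.47 are among the grey ones that do not, before adjustment over all rows, and *Xiap*, *Bak1*, *Bcl2l1*, *Mcl1*, *Bcl2l13*, *Acin1* and *Mdm2* change side with each pup scaled to the same total, a setting that adds about 0.20 to every gene and to the median of all rows.

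Markers of cell types in or next to the captured tissue also had unlike means in the groups. All 10 markers of radial glia and progenitors had log2 fold changes below 0, with a median of -0.36, 7 at an unadjusted p under 0.05 and 0 called by limma, and their summed level was 89695 to 120489 normalized counts in control and 72937 to 97003 in PTU pups. *Sox2*, which marks VZ progenitors, was present in every pup and had a log2 fold change of -0.08. Of 11 markers of intermediate progenitors and neurons, 8 had log2 fold changes above 0, 5 of them at an unadjusted limma p under 0.05. The other 3 were below 0, 1 of them at such a p. These were *Eomes* (-0.49) and *Neurog2* (-0.34), both with 6 of 6 PTU pups below the control mean, and *Neurod1* (-0.03). The sums of the 11 were 57239 to 80532 in control and 72533 to 122507 in PTU pups. The highest sum was that of PTU replicate 1, in which the neuronal factor *Neurod1* was at 5106 against at most 1384 in the other PTU pups. That pup also had the highest PTU level of *Casp9* and *Apaf1* among the 7 genes. The same held for *Bid*, *Bok*, *Bcl2l12*, *Ppif*, *Vdac2*, *Gsdme*, *Dnm1l* and *Ppp1r13b*. Without PTU replicate 1 the log2 fold change was -0.31 for *Casp9*, 0.09 for *Apaf1*, 0.36 for *Bok* and 0.30 for *Ppif*. All 7 markers of the oligodendrocyte lineage had log2 fold changes above 0. All 8 of choroid plexus, an epithelium next to the VZ, had ones below 0, with a median of -0.78 and sums of 49207 to 138296 and 22842 to 98654. Most of these sums was *Ttr* (43986 to 125906 in control and 19913 to 84875 in PTU pups). The paper states that choroid plexus cells were not part of the RNA-Seq, and the source of these transcripts was not tested. With each pup scaled to the same total, 9 of the 10 radial glia markers had log2 fold changes below 0, their median was -0.16 (-0.37 relative to all rows) and 0 of the 10, in place of 7, had an unadjusted limma p under 0.05. Microglia (9 markers, sums 1635 to 2356 and 1653 to 2301), endothelium (5 of 8 measured, sums 1750 to 2679 and 1950 to 2763) and proliferating cells (6 markers, sums 20347 to 35527 and 20638 to 33856) had nearly the same range in both groups, although 2 microglia markers had a log2 fold change below 0 at an unadjusted p under 0.05. No marker was at 0 in any pup and none was called by limma. In such bulk samples fewer cells of a type and less RNA per cell cannot be told apart, and the part of cell type composition in the values of the apoptosis genes was not tested.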

How the data were processed

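The deposited values are a normalized count signal per transcript row and pup. Per the labels and methods, the authors trimmed reads with Trimmomatic, aligned them to mRatBN7.2 (rn7) with STAR 2.7.8a, estimated counts with Partek's expectation/maximization model and applied median ratio normalization. Their own DESeq2 comparison columns (group means, ratios, fold changes, p-values and FDR) were not used. Of values between 20 and 150, 90.3 to 91.8% were whole multiples of a pup's smallest step (tolerance 0.1 step), too few to treat them as whole reads, so estimated reads are approximate and no count model was run.

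Log2(value + 1) was fitted with limma 3.58.1 (R 4.3.3, variance trend, group only) over rows with a mean of at least 10 (14606 of 14716). Each of the 7 genes also had an exact permutation test. For genes named from the other lists by their limma p, its unadjusted p is not independent of that choice. Replicate numbers are shared between groups but the pups came from different litters, so no pairing was used. A gene of the other lists that the naming rule takes enters the counts but is not reported here. Members, lists and the naming rule (the 3 genes of each list with the smallest limma p, since fewer than 10 of the listed genes passed the adjusted threshold; the 2 closest rows for likeness) were chosen with earlier results of these data known. The 24 alternatives covered pseudocount, filter, scaling, row choice, weights, variance trend, block and leaving out each pup. The script was tested on simulated data.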

Additional observations from a re-analysis of the deposited data

Results flagged for a closer look

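In 6 of 68 groups of pups tested, where chance flags about 1 in 20, the highest pup stood apart from the others by more than Dixon's critical value. These were *Xiap* in control replicate 5 (1217 normalized counts, the next 981) and in PTU replicate 3 (1033, the next 870), *Bad* in PTU replicate 2 (1089, the next 857), *Bid* in control replicate 4 (140, the next 99.5), *Dffa* in PTU replicate 4 (367, the next 324) and *Mdm2* in PTU replicate 2 (1450, the next 1226). The 2 *Xiap* pups lay in opposite groups.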

How the results depend on the processing

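The limma test called 0 of the 7 genes under all 24 alternatives, with a smallest adjusted p of 0.202. With each pup scaled to the same total, which moved the median of all rows to 0.20 and the rows with an unadjusted p under 0.05 from 1185 higher and 1198 lower to 1584 higher and 81 lower, the log2 fold change was 0.0602 for *Xiap*, 0.20 for *Bak1*, 0.17 for *Bcl2l1*, 0.0410 for *Mcl1*, 0.10 for *Bcl2l13*, 0.0133 for *Acin1* and 0.0332 for *Mdm2*, all reversed in sign, and -0.0689 for *Casp9*, whose exact permutation p was 0.78. Relative to that median, *Xiap* was at -0.14, *Bak1* at -0.00, *Bcl2l1* at -0.03, *Mcl1* at -0.16 and *Casp9* at -0.27. The median of the 83 other genes was 0.20 there. After quantile normalization *Casp9* was at -0.27 with an exact permutation p of 0.0536. With pups weighted by quality *Bak1* turned to 0.0283, 40 rows were called (18 higher, 22 lower), and 2 of the 83 genes were called, among them *Vdac3* (0.40).

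Leaving out each pup in turn gave 0 to 179 called rows (179 without PTU replicate 2, 7 without control replicate 6, otherwise 0) and 0 to 2 called genes of the 83, the 2, with *Vdac3* among them, without PTU replicate 2. The log2 difference ran from -0.35 to -0.22 for *Casp9*, from 0.0902 to 0.18 for *Apaf1*, from -0.19 to -0.0875 for *Xiap*, from 0.05 to 0.18 for *Bax*, from -0.0425 to 0.0580 for *Bak1*, from -0.0734 to 0.00029 for *Bcl2l1* and from -0.23 to -0.11 for *Mcl1*. Of the other named genes, *Dffa* was at 0.07 without control replicate 1 or PTU replicate 4, *Birc6* at 0.05 without control replicate 5, *Acin1* at -0.12 without control replicate 6 and *Bcl2l13* at -0.06 without PTU replicate 1, each over 1.5 times smaller. The cause of these changes was not tested.

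The replicate number as a block gave 18 called rows (2 higher, 16 lower), among them none of the 7 genes, and control replicate 7 has no partner there. The shared numbers were not taken as pairs, since the pups came from different litters and the correlation of same-numbered deviations was over 0.1 in 4 of 6 pairs and not in all (0.17, 0.20, -0.07, 0.01, 0.11 and 0.16), and 2 of 6 PTU pups were closest to the control pup of their own number. With rows of a mean under 100 left out, *Casp4*, *Tradd*, *Tnfrsf10b*, *Bcl2l12* and *Perp* had no value. Of the 7 genes, depth limits *Casp9*, *Bax* and *Bak1* most.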
